A study of Mus musculus with 16 samples.

Results

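Sncb, Dhdh, Asb16, Cntnap1, Kremen2 and Myo16 are 6 of 8551 named genes in a table of mouse CD4 + T cells, and all 6 are genes better known outside the lymphoid system. All 6 were nevertheless read in the sufficient Th17 cells described here, at means of 104 to 448 normalized counts. They were picked for the width of their fall in Sin3A-deficient Th17 cells, so that fall is a description here and carries no test. The cells came from C57BL/6 J Rosa26-CreERT2 +/- Sin3AF/F male mice of 2 months. The 4 groups, of 4 libraries each, were Sin3A-deficient Th17 cells (IL-7 with tamoxifen for 6 days, then 3 days of Th17 polarization), Sin3A-sufficient Th17 cells (the same course with no tamoxifen), Sin3A-deficient cells kept in IL-7 for 6 days with tamoxifen, and Sin3A-sufficient cells kept in IL-7 with none. All groups, the sufficient ones included, carry the tamoxifen-driven Cre, active from the ubiquitous Rosa26 locus, and the floxed Sin3a alleles, so loss of Sin3A and exposure to tamoxifen cannot be told apart. Each group has 1 library of each of 4 numbers (D3TAM955, D3955, BASALTAM955 and BASAL955 share one), and values below follow the rising order of these numbers, so that the last is always that of D3TAM960, D3960, BASALTAM960 or BASAL960.

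Sin3A is the scaffold of a corepressor complex that carries histone deacetylases to promoters through factors such as REST and MAD. It is best known for repression, and it has also been linked to the activation of some genes. Th17 cells are helper T cells made from naive CD4 T cells with TGF-beta and IL-6, and they secrete IL-17. A transcript level says nothing of the protein.

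The 6 genes share no family. Sncb encodes beta-synuclein, a presynaptic protein, and Dhdh encodes dimeric dihydrodiol dehydrogenase, an oxidoreductase known from liver and kidney. Asb16 encodes an ankyrin repeat protein with a SOCS box, the module by which such proteins dock to Cullin-5 ubiquitin ligases. Cntnap1 encodes Caspr, an adhesion protein of the paranodal junction between axon and myelin. Kremen2 encodes a receptor for Dickkopf proteins that limits Wnt signalling at LRP5 and LRP6. Myo16 encodes an unconventional myosin known from developing neurons.

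RefSeq promoters (GRCm38.p6) were at hand for 4 of the 6 genes. They are shown so that the letters upstream of their start sites can be set beside each other. The genes share a fall in deficient Th17 cells because they were picked for it. Each run is the 250 bases before the annotated start, read 5′ to 3′ on the gene's strand. Capitals mark the TATA box (TATAAA), the CCAAT box (CCAAT) and the GC box (GGGCGG), each on either strand. The Sncb run is chr13:54766596-54766845 (minus strand), the Asb16 run chr11:102268501-102268750 (plus), the Kremen2 run chr17:23745830-23746079 (minus) and the Myo16 run chr8:10153661-10153910 (plus). Dhdh (chromosome 7) and Cntnap1 (chromosome 11) are named only.
Sncb: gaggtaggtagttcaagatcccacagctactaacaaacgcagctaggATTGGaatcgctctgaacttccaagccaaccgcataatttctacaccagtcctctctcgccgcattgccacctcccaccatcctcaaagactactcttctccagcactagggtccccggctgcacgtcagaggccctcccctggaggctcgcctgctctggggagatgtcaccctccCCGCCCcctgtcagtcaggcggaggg
Asb16: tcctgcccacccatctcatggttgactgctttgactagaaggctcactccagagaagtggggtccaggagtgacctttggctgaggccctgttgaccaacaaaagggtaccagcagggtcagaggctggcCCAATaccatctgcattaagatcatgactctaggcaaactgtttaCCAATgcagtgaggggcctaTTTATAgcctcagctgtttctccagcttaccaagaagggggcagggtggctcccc
Kremen2: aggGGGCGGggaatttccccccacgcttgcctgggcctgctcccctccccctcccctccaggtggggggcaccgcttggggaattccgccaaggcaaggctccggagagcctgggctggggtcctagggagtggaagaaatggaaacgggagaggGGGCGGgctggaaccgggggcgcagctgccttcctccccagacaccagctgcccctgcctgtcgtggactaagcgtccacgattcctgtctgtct
Myo16: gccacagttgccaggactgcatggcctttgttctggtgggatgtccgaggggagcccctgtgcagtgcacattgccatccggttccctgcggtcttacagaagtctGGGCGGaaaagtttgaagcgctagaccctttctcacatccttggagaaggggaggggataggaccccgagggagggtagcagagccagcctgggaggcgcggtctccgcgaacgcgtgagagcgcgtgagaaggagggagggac

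The 4 promoters were of unlike kinds. The Asb16 run held no CpG pair at all and had a GC content of 53.6%. It had CCAAT boxes 120 and 75 bases before the start. The letters of the TATA box stood 55 bases before the start, on the opposite strand only. The Sncb, Kremen2 and Myo16 runs held 10, 12 and 14 CpG pairs, against a median of 6 over 32851 promoters of the same length, and each had at least 1 GC box. GC boxes stood in 32.7% of all promoters, CCAAT boxes in 33.8% and TATA boxes in 12.4%. The ROR half-site AGGTCA, present in 14% of promoters, was found in the Asb16 run alone. The core of the NFAT site, GGAAA (55.6% of promoters), stood in the Kremen2 and Myo16 runs, where in Myo16 it overlaps the GC box. The CRE half-site TGACG (17.8% of promoters) stood in the Sncb run. No letter run among those searched was common to all 4. The AP-1 site TGANTCA, the E-box CACGTG and CAGCACC, the start of the REST element, were in none of these windows.

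In Sin3A-deficient Th17 cells the 6 genes stood at 3.21% to 9.09% of their mean level in sufficient Th17 cells. Levels are normalized counts, that is reads divided by the authors' size factor of the library, as restored from the deposited digits. For each of the 6 genes, all 4 deficient Th17 libraries lay below all 4 sufficient ones. Among the 6619 named rows tested, 44.9% had this order, and since the genes were chosen on these libraries nothing is read from the count.

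Sncb, Dhdh and Asb16 were low or undetected in IL-7 and high in sufficient Th17 cells alone. Sncb had 0.878, 9.17, 6.71 and 12.9 normalized counts in deficient Th17 cells, against 122, 71.6, 145 and 341 in sufficient Th17 cells. In IL-7 it had 0, 7.04, 7.33 and 2.96 normalized counts in deficient cells, against 2.15, 3.12, 2.53 and 4.23 in sufficient cells. Library D3960 was the highest of the sufficient Th17 group, and the 3 low groups overlapped one another. The log2 difference of Sncb between deficient and sufficient Th17 cells was -4.43 on the log2(normalized count + 1) scale, which holds for every log2 difference of these genes below unless the authors' table is named.

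Dhdh was the most even of the 6 across the sufficient Th17 libraries, with a coefficient of variation of 15.9%. It had 2.64, 5.83, 7.67 and 10.3 normalized counts in deficient Th17 cells, against 176, 199, 197 and 253 in sufficient Th17 cells. In IL-7 it had 2.85, 9.68, 5.50 and 8.89 in deficient cells, against 9.68, 8.57, 11.8 and 5.92 in sufficient cells. The deficient Th17 libraries therefore lay in the range of the IL-7 libraries or just below it, with 30 reads over the 4 libraries against 29 in deficient IL-7 cells. The Dhdh difference of -4.87 was the largest of the 6.

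Asb16 went unread in IL-7 but for a single read. It had 4.39, 0.833, 4.79 and 6.03 normalized counts in deficient Th17 cells, against 72.1, 99.2, 73.9 and 169 in sufficient Th17 cells. In IL-7 it had 0.951, 0, 0 and 0 in deficient cells, against 0 in all 4 sufficient libraries, where a count of 0 still allows a mean of 0.655 (3 reads over the group). Sufficient Th17 cells were at least 158-fold above sufficient IL-7 cells by that floor. Deficient Th17 cells held 18 reads against 1 read in deficient IL-7 cells, a ratio of 17 whose exact 95% counting interval runs from 2.68 to 708. The difference between deficient and sufficient Th17 cells was -4.46.

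Sncb, Dhdh, Asb16 and Myo16 all had means of at most 10 in both IL-7 groups and of at least 100 in sufficient Th17 cells, as did 0.937% of named rows. Of these 4, Myo16 alone had every deficient Th17 library above every deficient IL-7 library. It had 15.8, 26.7, 37.4 and 54.3 normalized counts in deficient Th17 cells, against 296, 286, 395 and 499 in sufficient Th17 cells. In IL-7 it had 0, 1.76, 0.917 and 1.98 in deficient cells, against 0, 0, 0 and 2.54 in sufficient cells. Every deficient Th17 library was above every IL-7 library, and the means of deficient cells were 28.8-fold apart between Th17 and IL-7. Sufficient Th17 cells held 1476 reads against 3 in sufficient IL-7 cells, a ratio of 560 with a counting interval of 191 to 2718. Its Th17 difference of -3.52 was the smallest of the 6. Counting intervals and floors here cover counting error only.

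Cntnap1 and Kremen2 had another profile: both were read in IL-7, stood above that level in sufficient Th17 cells and below it in deficient Th17 cells. Cntnap1 had 19.3, 16.7, 18.2 and 26.7 normalized counts in deficient Th17 cells, against 214, 412, 656 and 511 in sufficient Th17 cells. In IL-7 it had 52.3, 52.8, 78.8 and 86.0 in deficient cells, against 78.5, 120, 105 and 152 in sufficient cells. Deficient Th17 libraries lay below every IL-7 library of either kind, and sufficient Th17 libraries lay above every one. The last of these IL-7 values, that of BASAL960, is uncertain by a factor of 10, and at the lower reading of 15.2 it would lie below the deficient Th17 libraries. The Th17 difference was -4.31.

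Kremen2 had 0.878, 19.2, 9.58 and 6.89 normalized counts in deficient Th17 cells, against 186, 99.2, 125 and 164 in sufficient Th17 cells. In IL-7 it had 26.6, 33.4, 23.8 and 33.6 in deficient cells, against 24.7, 35.0, 21.1 and 54.1 in sufficient cells. The highest deficient Th17 library, at 19.2, was still below the lowest IL-7 library, at 21.1, and the 2 IL-7 groups overlapped throughout. The Th17 difference was -4.23. Deficient Th17 cells averaged 31.1% of the deficient IL-7 level for Kremen2 and 30.0% for Cntnap1. Sufficient Th17 cells averaged 4.25 times the sufficient IL-7 level for Kremen2 and 3.93 times for Cntnap1. Of the 6619 named rows, 1.53% had Th17 libraries wholly above IL-7 in sufficient cells and wholly below IL-7 in deficient cells.

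**Figure D1:**
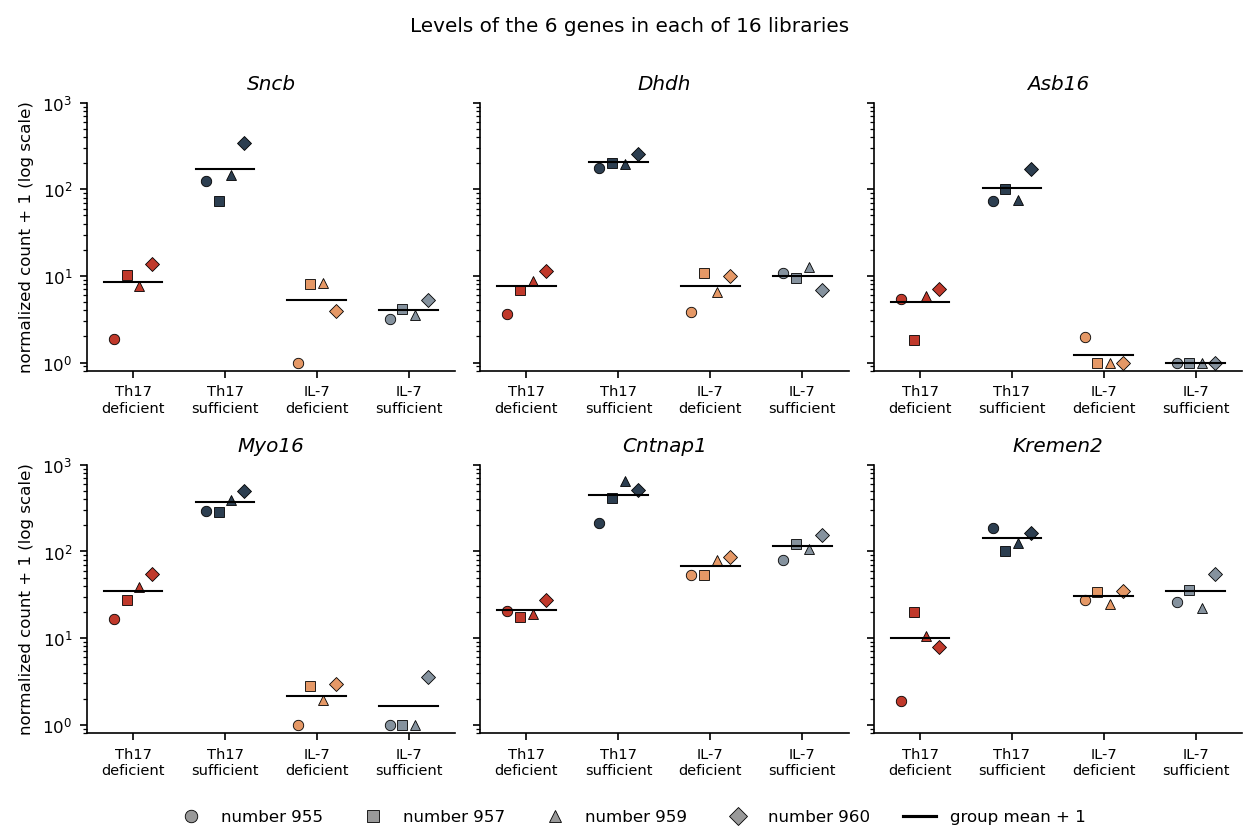
Normalized count plus 1 (log axis) of each gene in every library, by group. Symbols give the library number and bars the group mean plus 1. Asb16 and Myo16 sit near 0 in IL-7, with group means of at most 1.2, while Cntnap1 and Kremen2 are read in IL-7 and lie below that level in deficient Th17 cells, with means of 20.2 and 9.13.

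The change between Th17 and IL-7 cells was set out within deficient and within sufficient cells. All 6 genes had every sufficient Th17 library above every sufficient IL-7 library, an order that 36.3% of the named rows had. Within deficient cells the Th17 minus IL-7 difference was 3.98 for Myo16, 0.74 for Sncb, -0.03 for Dhdh, -1.68 for Cntnap1 and -2.0 for Kremen2. Within sufficient cells it was 5.21 for Sncb, 4.40 for Dhdh, 2.11 for Kremen2 and 1.89 for Cntnap1. For Asb16 in both kinds of cell and Myo16 in sufficient cells, IL-7 cells held 3 reads or fewer, and the ratios above stand in place of a difference. These contrasts share the Th17 libraries that chose the genes and were not tested.

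**Figure D2:**
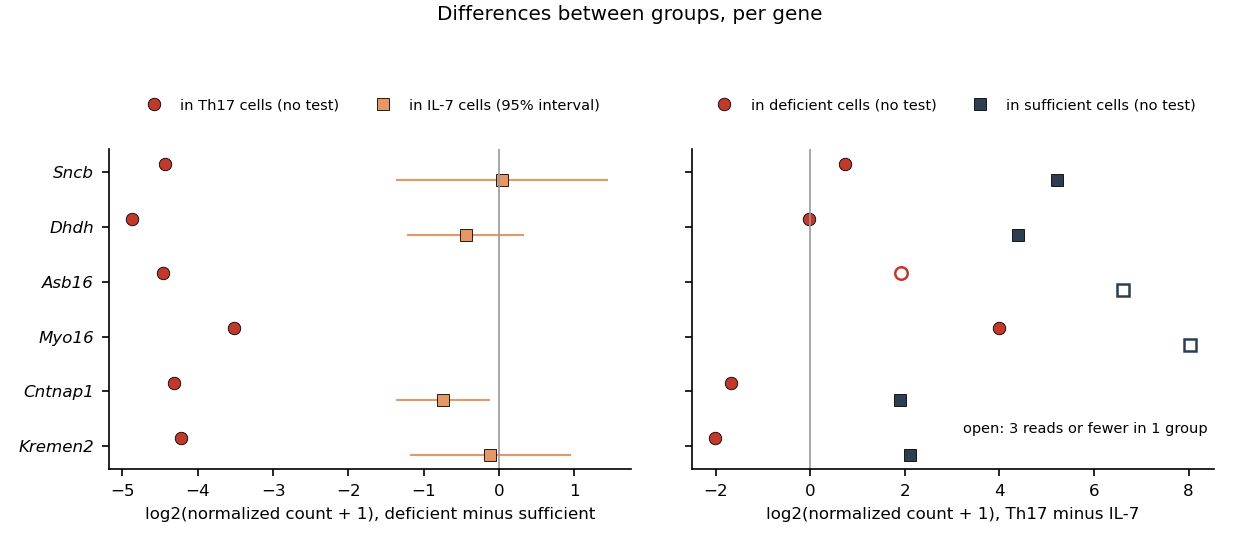
Log2 differences of each gene, deficient minus sufficient (left; 95% intervals for IL-7 cells, where Asb16 and Myo16 are left out as being at or near the floor of 3 reads) and Th17 minus IL-7 (right). Open symbols have 3 reads or fewer in 1 group and depend on the pseudocount. The 95% intervals draw on the spread of all 16 libraries, and nothing is read from that of Sncb. Th17 differences run from -4.87 to -3.52, and for Cntnap1 and Kremen2 the Th17 minus IL-7 difference lies on opposite sides of 0 in deficient and in sufficient cells.

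Levels can be set against each other only per length of annotated exon (GENCODE M21). Per kilobase, mean levels in deficient Th17 cells were 4.30 normalized counts for Kremen2, 4.24 for Myo16, 3.46 for Sncb, 3.44 for Cntnap1, 1.41 for Asb16 and 0.893 for Dhdh. In sufficient Th17 cells they were 79.3 for Sncb, 76.3 for Cntnap1, 67.6 for Kremen2, 46.7 for Myo16, 36.4 for Asb16 and 27.9 for Dhdh. The 6 genes were thus within the same order of magnitude in sufficient Th17 cells, although their IL-7 levels were not. In sufficient IL-7 cells they ran down from 19.4 for Cntnap1 and 15.9 for Kremen2 to 0 for Asb16.

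The IL-7 libraries took no part in choosing the genes, so deficient and sufficient IL-7 cells could be tested. Sncb, Asb16 and Myo16 passed the filter (a mean of at least 5 over all 16 libraries) only through Th17 libraries. With so few reads in IL-7, nothing is read from their lack of a call. Cntnap1, Kremen2 and Dhdh did not pass limma's test at an adjusted p under 0.05 (Benjamini-Hochberg over all 13596 rows). Of all rows, 4.07% passed, 281 lower and 273 higher (23 to 633 in all when libraries were left out). Cntnap1 came nearest. It averaged 67.5 ± 17.5 normalized counts in deficient cells and 114 ± 30.7 in sufficient cells (SD, n = 4 each), and it was lower in deficient cells in 4 of 4 same-numbered pairs. Its log2 change was -0.74 (SE 0.29, limma adjusted p = 0.169) with a 95% interval of -1.36 to -0.13. The 2 groups overlapped, as they did for Kremen2 and Dhdh, while 13.9% of rows had IL-7 groups that did not. An exact two-sided permutation test gave p = 0.0857, where 0.0286 is the smallest p that 4 against 4 allows. With the library number as a block the limma adjusted p was 0.0552. With the 8 IL-7 libraries alone, the SE was 0.24 and the limma adjusted p 0.107.

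The Cntnap1 value of sufficient library BASAL960 decides this change. Its digits stand for 180 reads or for 18, and 180 was taken with a probability of 0.893. With 18 reads the sufficient mean would be 79.8 and the log2 change 0.066 (SE 0.48, limma adjusted p = 0.971). The IL-7 change of Cntnap1 therefore has no settled direction.

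For the other genes read in IL-7, the intervals were wide, and they draw on the spread of all 16 libraries. With the 8 IL-7 libraries alone, the SE was 0.29 against 0.50 for Kremen2 and 0.38 against 0.36 for Dhdh. Neither gene passed there (limma adjusted p = 0.855 for Kremen2 and 0.547 for Dhdh). Kremen2 averaged 29.4 ± 4.92 normalized counts in deficient IL-7 cells and 33.7 ± 14.8 in sufficient cells (SD, n = 4 each), and its log2 change was -0.12, with an interval of -1.17 to 0.94 (limma adjusted p = 0.942). Dhdh averaged 6.73 ± 3.16 in deficient cells and 8.99 ± 2.45 in sufficient cells, a change of -0.44 with an interval of -1.21 to 0.32 (limma adjusted p = 0.581). Sncb averaged 4.34 ± 3.51 in deficient cells and 3.01 ± 0.905 in sufficient cells, a change of 0.04. Both means lie under 5, and Sncb passed the filter only through Th17 libraries. The Sncb interval of -1.36 to 1.44 spans more than a doubling in either direction, at 19 reads in deficient and 14 in sufficient cells. Nothing is read from its lack of a call. For Asb16, with 1 read in deficient and 0 in sufficient cells, and Myo16, with 5 in deficient and 3 in sufficient cells, no fold is given. The difference between the stages was not tested.

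Within the Th17 groups some libraries were high or low across genes. Among deficient Th17 libraries, D3TAM960 was the highest for 5 of the 6 genes and D3TAM955 the lowest for 4. Among sufficient Th17 libraries, D3960 was the highest for 4. Leaving out the libraries of 1 number moved the Kremen2 difference between -4.86 and -3.42 and the Sncb difference between -4.97 and -3.90, without a change of direction for any of the 6.

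The authors' deposited table, which names only genes with a log2 fold change below 0, gives Dhdh -4.96, Asb16 -4.70, Sncb -4.51, Cntnap1 -4.47, Kremen2 -3.97 and Myo16 -3.46. They hold places 1, 3, 4, 5, 13 and 37 among the 6619 named genes with settled reads and a mean of at least 5, so 31 genes that are not among the 6 stand above Myo16. Next to Myo16 among these genes, the authors' deposited table gives Gm16587 -3.48, just above, and Matk -3.38, just below. Among all 8551 symbols, settled or not, Dhdh ranks 16 and Myo16 137. Among the same 6619 genes, the 5 others with the lowest values in the authors' deposited table are Vstm5 at -4.83, Gm16144 at -4.42, Sema3b, a secreted semaphorin, at -4.37, RP24-288J3.1 at -4.13 and Ascl2, a transcription factor of follicular helper T cells and intestinal stem cells, at -4.11. Sema3b averaged 7.20 normalized counts in deficient Th17 cells and 149 in sufficient ones, levels much like those of Sncb, while Vstm5 averaged 1.74 in deficient and 50.1 in sufficient Th17 cells.

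Only named genes, all with a deposited fold change below 0, were searched for like profiles. The genes whose profile over the 16 libraries was most like each member's differed with the IL-7 level. For Cntnap1 they were Errfi1, an inhibitor of the EGF receptor (Pearson r of 0.98 on the log2 scale), Fuca2 (0.964) and Erlec1 (0.955). For Kremen2 they were Pvr, the poliovirus receptor homologue (0.941), Fam69b (0.934) and Hcfc1r1 (0.931). Pvr averaged 372 normalized counts in deficient Th17 cells and 1365 in sufficient Th17 cells, against 667 and 753 in deficient and sufficient IL-7 cells, the same order as Kremen2.

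Sncb was closest to Itgb3bp (0.965) and Eid1 (0.955), followed by a gene known by a clone name alone (0.953), and Dhdh to Gm9885 (0.967), Tle6 (0.962) and Bzrap1 (0.961). Bzrap1 had 222 normalized counts in deficient Th17 cells and 3231 in sufficient Th17 cells. Asb16 was closest to Ech1 (0.980), Rpl13a (0.977) and Gm16144 (0.972). Myo16 was closest to Gna13 (0.988), Mthfd1l (0.987) and Hnrnpa1 (0.986). Of the 6613 other named rows, 1055 had an r above 0.9 with Myo16, against 24 for Kremen2. Among the 6 genes, r ran from 0.393 for Kremen2 and Myo16 to 0.938, reached by Sncb with Dhdh and by Asb16 with Myo16. These correlations are descriptions over 16 libraries in 4 groups that the points share, and a high r is mostly the order of the group means.

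The nearest protein-coding genes were looked up, up to 2 on each side in RefSeq order, to see whether the falls stayed with single genes. Of 24 such neighbours, 13 are listed by the authors and 11 could be tested. Of the 11, 6 were lower in deficient Th17 cells, against 54.5% of all named rows, and the median log2 change was -0.38, against -0.42 over named rows. Only genes with a deposited fold change below 0 carry names, so none of these could have been seen to rise.

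The widest values among the neighbours were at the Cntnap1 locus. Ccr10, the receptor for the skin chemokine CCL27 and mucosal CCL28, overlaps the span of Cntnap1 on the other strand with no shared exon, and the authors' deposited table gives it -4.82 (SE 0.78), below Cntnap1 itself. Ccr10 averaged 1.52 ± 1.90 normalized counts in deficient Th17 cells and 43.3 ± 20.9 in sufficient Th17 cells (SD, n = 4 each). Plekhh3, on its far side, is at -2.50 (SE 0.46) in the authors' deposited table and shares 233 exon bases with Cntnap1 on the opposite strand in GENCODE M21, while the spans of the pair do not overlap in RefSeq. On the other flank Ezh1, a histone methyltransferase of the Polycomb group, had a log2 change of -0.06 (SE 0.11, limma adjusted p = 0.703). The IL-7 reads of Ccr10 and Plekhh3 are not settled and are not given.

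Dhdh overlaps Tulp2, a tubby-like gene on the opposite strand, over 387 exon bases. Tulp2 averaged 9.82 ± 4.53 normalized counts in deficient Th17 cells and 35.9 ± 8.05 in sufficient Th17 cells, and it fell by 1.85 on the log2 scale (SE 0.32, limma adjusted p = 8.73e-05). The library kit kept strand, but the strand setting of the counting is not given in the sources used here, so reads of the shared bases cannot be assigned. Ftl1, the ferritin light chain on the other side of Dhdh, fell by 0.38 in Th17 cells (SE 0.09, limma adjusted p = 0.00149) and rose by 0.44 in IL-7 cells (SE 0.09, limma adjusted p = 0.00993), the only neighbour called in IL-7 cells.

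Around Kremen2, Pkmyt1, a kinase that holds back mitosis, changed by -0.01 (limma adjusted p = 0.943), while Flywch1 fell by 0.39 (limma adjusted p = 0.00752) and Flywch2 fell by 1.81 (limma adjusted p = 0.00177). Around Asb16, Hdac5, a class II histone deacetylase, fell by 0.76 (SE 0.15, limma adjusted p = 0.000386), and Tmub2 and Atxn7l3 had log2 changes of -0.01 and -0.03 that did not pass. Irs2, an insulin receptor substrate next to Myo16, averaged 771 normalized counts in deficient Th17 cells and 2696 in sufficient Th17 cells and fell by 1.83 (SE 0.16, limma adjusted p = 7.17e-08). The neighbours of Sncb are not among the listed genes.

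**Figure D3:**
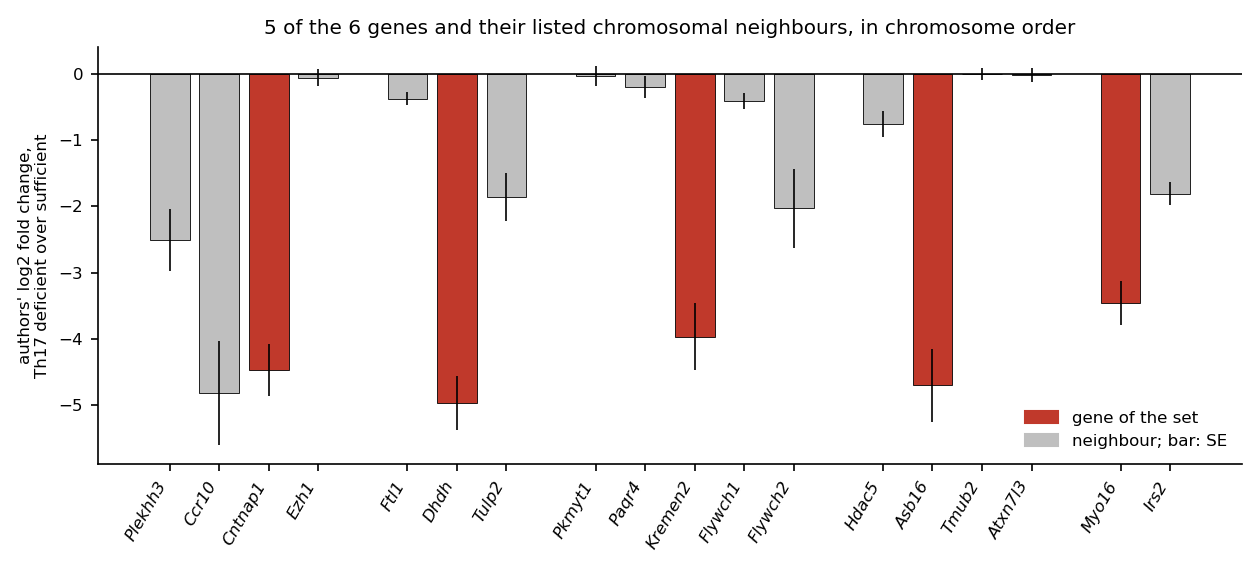
The authors' log2 fold change (bars, with SE) in deficient over sufficient Th17 cells for 5 of the 6 genes (red) and their listed neighbours (grey), in chromosome order. Ccr10 at -4.82 and Plekhh3 at -2.50 are low beside Cntnap1, whereas Ezh1, Tmub2, Atxn7l3 and Pkmyt1 lie near 0.

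Genes of the families and tissues to which the 6 belong were counted from lists that leave the 6 out. In Th17 cells the lower calls stand beside the 54.5% of all named rows that were lower, and rises could not be seen among named genes. Of 10 tested neuronal genes, 5 fell, among them Bsn (fell by 2.06), a presynaptic scaffold, Dnm1 (fell by 1.88), the neuronal dynamin, and Nefh (fell by 1.82), a neurofilament. Of 7 tested muscle genes, 5 fell, led by the troponins Tnnt1 (fell by 2.16) and Tnnc1 (fell by 1.46). The list medians were -1.06 for neuronal and -1.35 for muscle genes, against -0.42 over named rows.

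The family lists had medians of -0.74 for unconventional myosins, -0.39 for Wnt receptor genes, -0.33 for dehydrogenases, -0.30 for paranodal genes and -0.06 for ASB ligases. Of 8 tested unconventional myosins, 5 fell, among them Myo1f, a myosin of leukocytes (fell by 1.81), and Myo7a (fell by 1.62). Of 6 tested Kremen, Dickkopf and Wnt receptor genes, Fzd7 (fell by 1.66) and Lrp5 (fell by 1.58), both Wnt receptors, passed. Of 7 tested aldo-keto and related dehydrogenases, 5 fell, with Akr1c18 (fell by 1.66) the widest. Of 6 tested genes of ASB ligases, Tceb1, elongin C, passed with a fall of 0.25. Of 2 tested paranodal genes, Sptbn1, a beta-spectrin, passed with a fall of 0.41. The widest fall in any of these lists was by 2.64, for Rcor2. The 6 genes were picked for wide falls, so list genes and the 6 are not compared by width.

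In IL-7 cells, 3.87% of named rows passed, and in these lists 1 of 7 dehydrogenases, 1 of 10 neuronal genes, 1 of 7 muscle genes and the 1 tested glial gene were lower. There Akr1c18 fell by 1.49 (limma adjusted p = 0.0154), Stx1a, a neuronal syntaxin, by 0.42 (0.0109 by the same test) and Neb, the nebulin of muscle, by 1.71 (0.000383 by the same test). Cnp, a myelin enzyme and the only glial or myelin gene tested, fell by 0.65 (limma adjusted p = 0.0403). No tested ASB, paranodal, Wnt receptor or myosin gene passed in IL-7 cells.

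**Figure D4:**
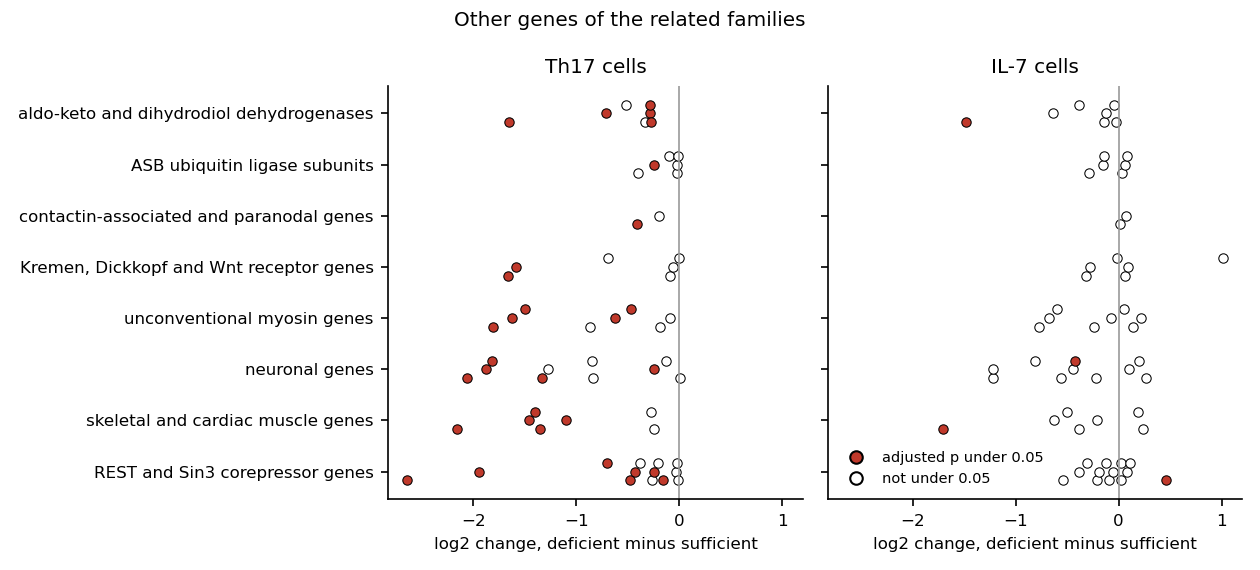
Log2 change, deficient minus sufficient, of tested genes in 8 lists without the 6 genes, in Th17 cells (left) and IL-7 cells (right). Filled points passed at an adjusted p under 0.05. The widest Th17 values are Rcor2 at -2.64, Tnnt1 at -2.16 and Bsn at -2.06.

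REST and Sin3 corepressor genes were listed because Sin3A works with REST. Of 13 tested, 7 fell in Th17 cells, with a list median of -0.27, and Rcor2, the corepressor CoREST2, fell the most, by 2.64 (SE 0.42, limma adjusted p = 3.57e-05). Tet1, a cytosine dioxygenase that binds Sin3A, fell by 1.94. Mxi1, a MAD family partner of Sin3A, was the one called in IL-7 cells, where it rose by 0.46 (limma adjusted p = 0.0307). Sin3a itself averaged 1774 ± 49.9 normalized counts in deficient Th17 cells and 2106 ± 181 in sufficient Th17 cells, a fall of 0.24 (SE 0.08, limma adjusted p = 0.0113). In IL-7 it averaged 2211 ± 98.2 in deficient cells and 2524 ± 249 in sufficient cells, a change of -0.19 (limma adjusted p = 0.188). Counts over the whole gene do not show whether the floxed part is lost.

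Per library, 19758630 to 28624706 reads were restored. The T cell markers Cd3e and Cd4 were at 5133 and 5632 normalized counts or more in every library, so the cells read as CD4 + T cells. The 8 settled CD4 T cell markers of 12 summed to 39220 to 43589 in deficient Th17 cells, against 63640 to 68680 in sufficient Th17 cells, and all 8 fell. Only genes with a deposited fold change below 0 carry names, so no marker of any cell could be seen to rise in Th17 cells. Of all named rows, 54.5% were called lower there, and nothing is read from the marker falls in Th17 cells. Of 8 neuron markers only Snap25 had settled reads, with at most 7.67 normalized counts in any library. Of 6 muscle markers only Ckm had them, at 5.0 to 16.3 in deficient Th17 cells and 7.16 to 23.5 in sufficient Th17 cells. No glial marker of 6 is listed. Myeloid Cd68, the only settled one of 12, was at 52.5 to 66.8 in deficient Th17 cells, against 121 to 175 in sufficient Th17 cells. Settled B cell markers, 3 of 8, summed to 60.8 to 185 in deficient Th17 cells and 136 to 326 in sufficient Th17 cells. In IL-7 they summed to 125 to 210 in deficient cells and 311 to 1004 in sufficient cells, and Blk, a kinase of B cells, fell by 2.50 there (limma adjusted p = 0.00833). Settled stromal and endothelial markers, 2 of 14, summed to 314 to 522 in deficient Th17 cells and 1423 to 1935 in sufficient Th17 cells. There Pecam1, an adhesion protein of endothelium and leukocytes, fell by 2.25 and Lum by 1.13. In IL-7 the 2 summed to 5357 to 6002 in deficient cells and 6286 to 7392 in sufficient cells. Most of that was Pecam1, with means of 5714 in deficient and 6936 in sufficient cells. Settled CD8 and NK markers, 2 of 9, summed to 107 to 214 in deficient and 213 to 659 in sufficient Th17 cells. In IL-7 these summed to 497 to 805 in deficient and 710 to 938 in sufficient cells. The part of other cell types in the falls of the 6 genes was not tested. In bulk libraries fewer cells that read a gene and less RNA per cell cannot be told apart.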

How the data were processed

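PolyA RNA of mouse CD4 + T cells was read as stranded paired-end libraries, per the labels' protocols. Per the submitters' processing notes, Trim Galore 0.4.4, STAR 2.6, featureCounts, edgeR and DESeq2 were used with build NCBIM37. The authors' table holds a normalized count per gene and library, a score here since its decimal point was lost, and, in another row order, a mean signal, log2 fold changes, their standard errors, and p-values for 8551 symbols, as deposited. No table of whole counts was used.

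Over the 16 libraries, 99.993% of values above 0 were whole multiples of 1 step (within 2e-09 of the value), which gives reads up to a power of 10. The power was set by a negative binomial model of replicate agreement, and 78.3% of 17850 rows were settled, at a posterior of 0.95 in each IL-7 group and either the same or a joined symbol for the Th17 groups. A symbol was joined to the row whose restored Th17 reads give its deposited log2 fold change within 1e-06 at its deposited standard error, with the next row at least 20 times further off. This joined 93.7% of symbols, and 10 of 1000 decoys with shifted values. All 6 genes were joined, and for Sncb, Asb16 and Myo16, whose posteriors in sufficient Th17 cells were 0.758, 0.723 and 0.722, the join alone settles the Th17 reads. Asb16 was joined at powers other than the likeliest, and Cntnap1 is kept although its row is not settled. In simulated digits, 63.9% of rows were settled, and 99.5% of settled rows had all reads right, against 89.3% of all rows. There, 100% of joined symbols were on their own row. The simulated fold changes and standard errors came from the formula that the join uses, over 4000 rows. That share therefore does not test the join on the authors' values. The simulated rows were drawn from rows settled here, so these shares do not cover unsettled rows such as that of Cntnap1.

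limma 3.58.1 (R 4.3.3, eBayes with trend) was run on log2(normalized count + 1) over all 16 libraries in 4 groups, for 13596 rows with a mean of at least 5. In simulated IL-7 libraries it recovered 80% of 50 falls of 0.5-fold and 86% of 50 rises of 2-fold. The changed rows had higher sufficient IL-7 means than Sncb, Dhdh, Asb16 and Myo16, so these shares do not apply to those genes. The simulated spread was set and not taken from these libraries, so the shares may not hold for Cntnap1 and Kremen2 either. Same-numbered IL-7 libraries deviated together (correlations of 0.237 to 0.657 over 10769 rows, each highest with its own number), so the numbers pair them by this measure alone. The labels do not say whether a number is a mouse, and p-values measure the spread between libraries, which may be technical. Alternatives were other pseudocounts, filters, scalings, row sets, limma-voom, the block, the IL-7 libraries alone and leaving out libraries.

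The 6 genes, the lists and the markers were chosen with earlier results of these data known. Further named genes are the 3 most correlated with each of the 6, up to 2 neighbours a side, up to 4 genes a list by size of change, and the 5 other genes with the lowest deposited fold change among settled rows with a mean of at least 5. Gm16587, Matk, Stx1a, Neb and Mxi1 fall outside this rule and were named after their values were seen. One gene of the corepressor list is not reported here.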

Additional observations from a re-analysis of the deposited data

Results flagged for a closer look

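For Cntnap1 and Kremen2, Th17 cells and IL-7 cells differed in opposite directions in deficient and sufficient cells, in all 4 libraries of each group. Of the 6619 named rows, 1.53% had such an order, with Th17 libraries wholly above IL-7 in sufficient cells and wholly below in deficient cells. Cntnap1 had a Th17 minus IL-7 difference of -1.68 in deficient cells and 1.89 in sufficient cells, and Kremen2 one of -2.0 in deficient cells and 2.11 in sufficient cells. This difference between deficient and sufficient cells was not tested, since the Th17 libraries chose the genes, and nothing is read from the order. With the other reading of BASAL960, Cntnap1 in sufficient Th17 cells is still above every sufficient IL-7 library.

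Single libraries stood far from their group in 2 of the 24 groups of 4 (6 genes in 4 groups). In both, the other 3 libraries were at 0, where any read stands out by this measure, so no chance rate applies. Asb16 had 0.951 normalized counts, 1 read, in the deficient IL-7 library BASALTAM955 and 0 in the other 3. Myo16 had 2.54 normalized counts, 3 reads, in the sufficient IL-7 library BASAL960 and 0 in the other 3. Both rest on 3 reads or fewer.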

How the results depend on the processing

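Cntnap1, Kremen2 and Dhdh did not pass in IL-7 cells under any of the 23 alternatives, beside 4.07% of all rows in the main setting. Sncb, Asb16 and Myo16 had 22 alternatives, since they were too low to be tested with the 8 IL-7 libraries alone. Nothing is read from their lack of a call in IL-7 cells. The 554 rows called there became 831 with the replicate block and 23 to 633 when libraries were left out, at 23 without the number of BASAL957 and 126 without that of BASAL959, and, for single libraries, 236 when BASALTAM957 was left out, 283 for BASALTAM955, 298 for BASAL957 and 329 for BASALTAM959. The block did not change the call of Cntnap1, Kremen2 or Dhdh, with a Cntnap1 limma adjusted p of 0.0552. Cntnap1 reversed to 0.066 with BASAL960 at the lower power of 10, an alternative added after the data were seen, and otherwise ran from -0.91 to -0.59 when libraries were left out. Kremen2 reversed to 0.069 without the number of BASAL960 and to 0.14 without BASAL960 alone, and ran from -0.30 to 0.14 when libraries were left out. Sncb, at 0.04 on few reads, reversed to -0.11 with a pseudocount of 0.5, to -0.10 with limma-voom, and to values below 0 in 6 settings that leave out libraries, within a range of -0.36 to 0.71. In Th17 cells a pseudocount of 5 moved Dhdh to -4.22, Asb16 to -3.55, Sncb to -3.71, Kremen2 to -3.53, Cntnap1 to -4.07 and Myo16 to -3.35, since it shrinks low values, and leaving out a number kept all 6 between -5.00 and -3.31. TMM and median-of-ratios scaling moved the median of all rows by under 0.1 on the log2 scale. Depth limits Sncb, Asb16 and Myo16 in IL-7 cells, at 0 to 19 reads per group.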
